A study of Homo sapiens with 8 samples.

Results

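RBFOX2 eCLIP peaks that fall in long noncoding RNA (lncRNA) genes and in no other kind of gene were examined. A called peak was taken where its midpoint lay in at least 1 RefSeq span of biotype lncRNA on GRCh38 and in no span of another biotype. MALAT1, NEAT1, KCNQ1OT1, MMP25-AS1 and chromosomes X and Y were left out. This gave 27883 of the 1118316 peaks in the 4 lists, with 6621, 7034, 7309 and 6919 in replicates 1 to 4 (mean 6970.75 ± 285, SD, n = 4). The peaks lay in 1505 of the 17795 autosomal lncRNA genes of the table, with a median of 5 peaks per gene, and 332 genes held a single peak. The spans carry no exons here, so a peak is placed in a gene but not in an exon or an intron.

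The data came from HEK293T, a transformed human embryonic kidney line, as 4 immunoprecipitates of RBFOX2 and 4 inputs with the same numbers. No group differed in genotype or treatment. Every library came from cells crosslinked with 254 nm light at 400 mJ/cm2, and each input was a 2% portion of the sample. Each deposited list sets 1 immunoprecipitate against the input of the same number, so the comparison throughout is RNA recovered with RBFOX2 against input RNA. The labels do not say that the replicates were separate cultures, and p-values then measure only the spread between these samples, which may be technical. Folds over input are not expression levels, so the line was not checked against marker genes.

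RBFOX2 is an RNA-binding protein of the RBFOX family that recognises the RNA motif (U)GCAUG through a single RNA recognition motif and regulates alternative splicing, mostly from introns. In eCLIP, ultraviolet light fixes a protein to the RNA it touches, and RNA recovered with the protein is compared with input RNA to find the places where it is bound. LncRNA genes are a mixed class that includes hosts of small nucleolar RNAs and microRNAs, antisense and divergent transcripts of coding genes, readthrough transcripts and nuclear scaffolds.

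Peaks count as enriched here when their deposited log2 fold (immunoprecipitate over input) and their deposited −log10 p both reached 3. The sequences of the peaks themselves were not used here. The promoter windows of RefSeq (300 bases, from 250 before to 50 after a gene's start, GRCh38.p14) overlapped 369 lncRNA-only peaks on the gene's strand, and 8 of these were enriched. Over all lncRNA-only peaks 0.644% were enriched, and over all called peaks 0.818% (means over lists). The 8 lay only in SLC25A25-AS1, ZNF503-AS2, ARRDC1-AS1 and SNAI3-AS1. The windows of SLC25A25-AS1 (chr9:128118685-128118984, minus strand) and ZNF503-AS2 (chr10:75403506-75403805, plus strand) are shown because they met enriched peaks in 2 replicates each and hold the RBFOX motif. Capitals mark TGCATG.

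SLC25A25-AS1: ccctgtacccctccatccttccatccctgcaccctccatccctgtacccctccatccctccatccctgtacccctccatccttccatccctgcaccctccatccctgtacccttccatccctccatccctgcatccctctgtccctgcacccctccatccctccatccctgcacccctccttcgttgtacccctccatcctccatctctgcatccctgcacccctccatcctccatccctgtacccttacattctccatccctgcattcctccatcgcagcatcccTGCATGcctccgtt
ZNF503-AS2: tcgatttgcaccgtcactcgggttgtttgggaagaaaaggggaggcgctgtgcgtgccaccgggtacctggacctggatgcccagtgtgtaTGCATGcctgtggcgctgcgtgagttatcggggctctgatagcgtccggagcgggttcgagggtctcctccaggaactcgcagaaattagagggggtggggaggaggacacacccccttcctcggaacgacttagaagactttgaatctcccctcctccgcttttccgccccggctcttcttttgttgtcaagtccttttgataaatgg

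In SLC25A25-AS1, antisense to the mitochondrial carrier gene SLC25A25, the enriched peaks of replicates 2 and 4 began 4 and 6 bases downstream of the motif. The peaks that began there had log2 folds of 2.87, 3.81, 2.32 and 4.30 in replicates 1 to 4. All 4 were above 0, and those of replicates 1 and 3 were below the threshold. In ZNF503-AS2, the enriched peaks of replicates 1 and 2 ended 10 and 16 bases upstream of the motif, with log2 folds of 4.09 and 3.81. The same place had a log2 fold of 0.42 in replicate 3 and no called peak in replicate 4. GCATG, whose letters lie inside TGCATG, was found on the gene's strand in 19.6% of all 35116 RefSeq windows and in 22.0% of the 12917 windows of lncRNA genes. Counting both strands, with CATGC as the reverse complement, the shares were 29.5% and 34.0%. TGCATG was found on the gene's strand in 5.23% of all windows and 7.24% of lncRNA windows (9.46% and 12.8% on either strand, with CATGCA as the reverse complement). The windows of ARRDC1-AS1 and SNAI3-AS1 and the second window of ZNF503-AS2, which also met enriched peaks, held neither motif on either strand.

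Enriched RBFOX2 peaks were uncommon in lncRNA genes, and their share was lower than in protein-coding genes in each replicate. Of the 27883 peaks, 179 were enriched, with 47, 45, 41 and 46 in replicates 1 to 4 (mean 44.75 ± 2.63, SD, n = 4). These were 0.710%, 0.640%, 0.561% and 0.665% of the called lncRNA-only peaks (mean 0.644% ± 0.0624, SD, n = 4). Among all called peaks 0.861%, 0.848%, 0.789% and 0.775% were enriched (0.818% on average). In protein-coding-only spans the share was 0.807% ± 0.0443, and outside all gene spans it was 0.249% ± 0.0699 (SD, n = 4 for both).

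The share in lncRNA genes was below that in protein-coding genes in 4 of 4 replicates. The difference was −0.163 ± 0.0558 percentage points (SD, n = 4; exact two-sided sign-flip permutation, p = 0.125), and the shares of the 4 lists did not overlap. It was above the share outside genes in 4 of 4 replicates, by 0.395 ± 0.0789 percentage points (p = 0.125, same exact test). With 4 replicates 0.125 is the smallest p this test can give, so neither difference can pass 0.05. Leaving out the 3 loci described next, which hold the most enriched lncRNA-only peaks, lowered the lncRNA share to 0.167%. The difference from protein-coding peaks was then −0.640 and that from peaks outside genes −0.0816 percentage points. The loci were chosen for their enriched peaks and the other classes kept theirs, so these values describe how few loci hold the lncRNA signal. At a −log10 p of at least 5 the difference from protein-coding peaks was −0.0421 ± 0.0407 percentage points, and −0.00187 in replicate 2.

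**Figure D1:**
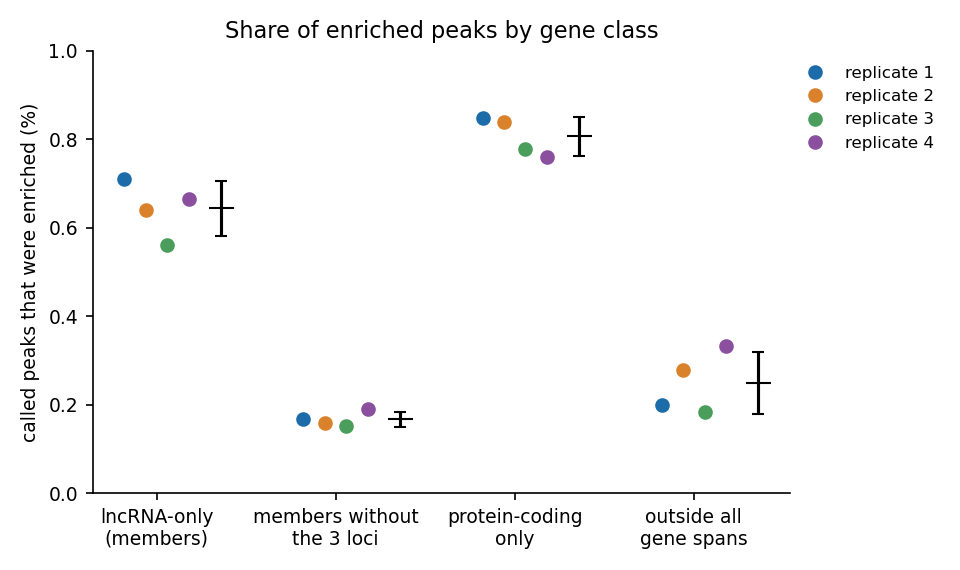
Percent of called peaks that were enriched, by gene class, with 1 point per replicate and the mean ± SD of the 4 replicates as a black bar. The lncRNA-only shares lay between 0.561% and 0.710%, below the protein-coding shares in each list, and fell to 0.167% on average when the 3 loci with most enriched peaks were left out.

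The enriched peaks were concentrated in few genes. Of the 1505 lncRNA genes with a peak, 30 (1.99%) held an enriched one, 8 held one in every replicate and 12 in only 1. LOC728715, the readthrough STAG3L5P-PVRIG2P-PILRB, and the adjacent ZNF503-AS2 and LOC101929234 together held 133 of the 179 enriched peaks (74.3%) and 289 of the called ones (1.04%). The genes with the most called peaks were others. MIR924HG had 1652 called peaks and 1 enriched, and PVT1, a transcript next to MYC, had 1276 and 1. DLEU1 and DLEU2, which lie in a region often deleted in chronic lymphocytic leukaemia, had 919 and 349 called peaks and none enriched.

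**Figure D2:**
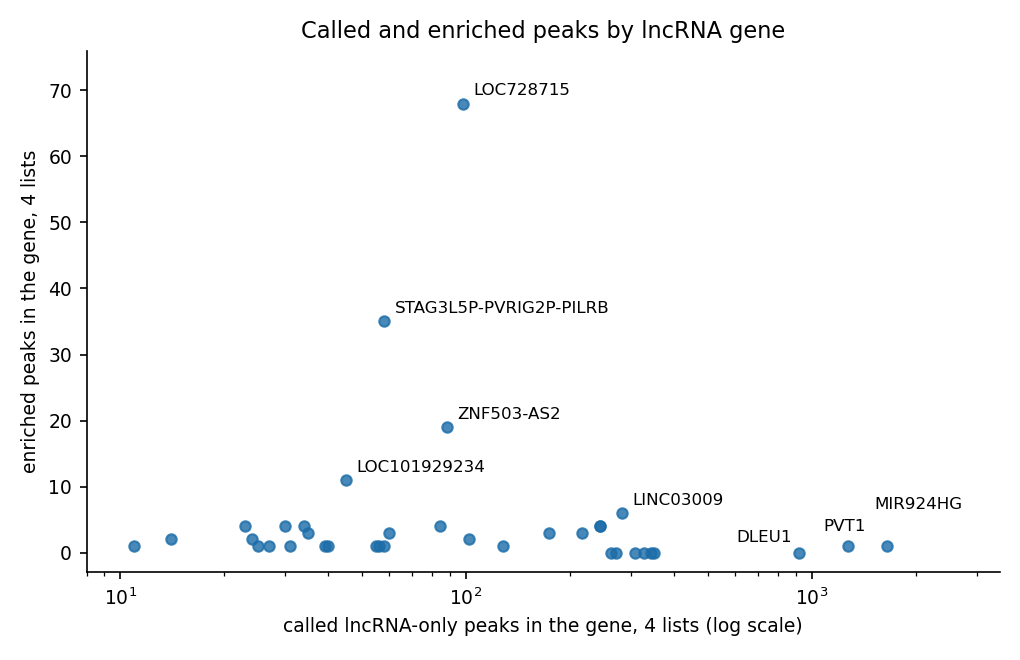
Called lncRNA-only peaks per gene (x axis, log scale) against enriched peaks per gene (y axis), summed over the 4 lists, for the 30 genes with an enriched peak and the 10 genes with the most called peaks. LOC728715 reached 68 enriched of 98 called peaks, whereas MIR924HG had 1 of 1652.

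The other genes among the 10 with the most called peaks followed DLEU2 closely. LINC01876 had 344 peaks, LINC01605 had 327, LINC-PINT had 309, LOC729732 had 272 and NUTM2B-AS1 had 262, none of them enriched. LINC03009 had 282, of which 6 were enriched. The called peaks of these 10 genes sum to 5992, where a peak in the overlapping spans of DLEU1 and DLEU2 counts for both. Their spans are long, from 78642 nt for LINC03009 to 545072 nt for MIR924HG, and they held between 1.33 and 4.16 called peaks per kilobase over the 4 lists.

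LOC728715 (chr12:9397057-9407414), an uncharacterised locus, held the most enriched peaks. In replicates 1 to 4, 17 of 24, 17 of 23, 15 of 24 and 19 of 27 of its called peaks were enriched, all on the minus strand. The median log2 fold of its called peaks was 4.04, 3.74, 3.40 and 3.81. Enrichment was therefore high in every replicate, and no replicate carried it alone. The enriched peaks merged into 14 regions within 3965 nt (9403173 to 9407137), 7 of them enriched in all 4 replicates and 2 in 3. The region at 9403363 to 9403613 had log2 folds of 5.70, 6.13, 4.78 and 5.93 (mean 5.64 ± 0.60, SD, n = 4), and that at 9403943 to 9404199 had 6.27, 5.88, 4.43 and 5.09 (5.42 ± 0.82). For a region, the value per replicate is the highest log2 fold among its peaks. Replicate 3 was the lowest in both.

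The span of LOC728715 neighbours the pseudogenes DDX12P and OVOS1P, and the strand of the gene is not listed in the tables used. How reads that map to several places were handled is not given in the sources used here. Its part in these values was not tested. Leaving LOC728715 out lowered the share of enriched lncRNA-only peaks from 0.644% to 0.401%.

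STAG3L5P-PVRIG2P-PILRB (chr7:100336065-100367831, plus strand) is a readthrough transcript that runs through the pseudogenes STAG3L5P and PVRIG2P towards PILRB, which encodes an activating immune receptor. In replicates 1 to 4, 8 of 14, 10 of 14, 9 of 16 and 8 of 14 called peaks were enriched. They merged into 6 regions, 3 of which were enriched in all 4 replicates. The region at 100351822 to 100352112 had log2 folds of 4.03, 4.09, 4.29 and 4.96 (mean 4.34 ± 0.43, SD, n = 4). Those at 100351408 to 100351604 and 100351620 to 100351802 had means of 3.67 ± 0.34 and 3.63 ± 0.22. The 3 regions lay next to each other, 6150 to 6611 nt from the span of PILRB, and their −log10 p reached 41.5, above that of every other lncRNA-only region enriched in at least 3 replicates. A further region at 100357273 to 100357433, 764 nt from PILRB, was enriched in 3 replicates, with log2 folds of 3.32, 3.39, 4.17 and 3.52. Here too the handling of reads shared with near-identical copies is not known.

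ZNF503-AS2 (chr10:75401528-75408982) and LOC101929234 (chr10:75409157-75411324) lie one after the other on the plus strand, near the zinc finger gene ZNF503. Together 11 of 37, 7 of 30, 6 of 35 and 6 of 31 of their called peaks were enriched, 19 in ZNF503-AS2 and 11 in LOC101929234. The median log2 fold of their called peaks was 2.58, 2.39, 2.59 and 2.32. Most peaks were thus above input, but under the threshold. The 30 enriched peaks gave 16 regions spread over 7357 nt, of which 1 was enriched in all 4 replicates and 2 in 3. In LOC101929234 the region at 75410550 to 75410756 had log2 folds of 4.39, 3.32, 3.39 and 4.25 (mean 3.84 ± 0.56, SD, n = 4). In ZNF503-AS2 the region at 75408582 to 75408746 had 5.39, 4.09, 2.94 and 4.52 (4.24 ± 1.02) and missed the threshold in replicate 3.

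**Figure D3:**
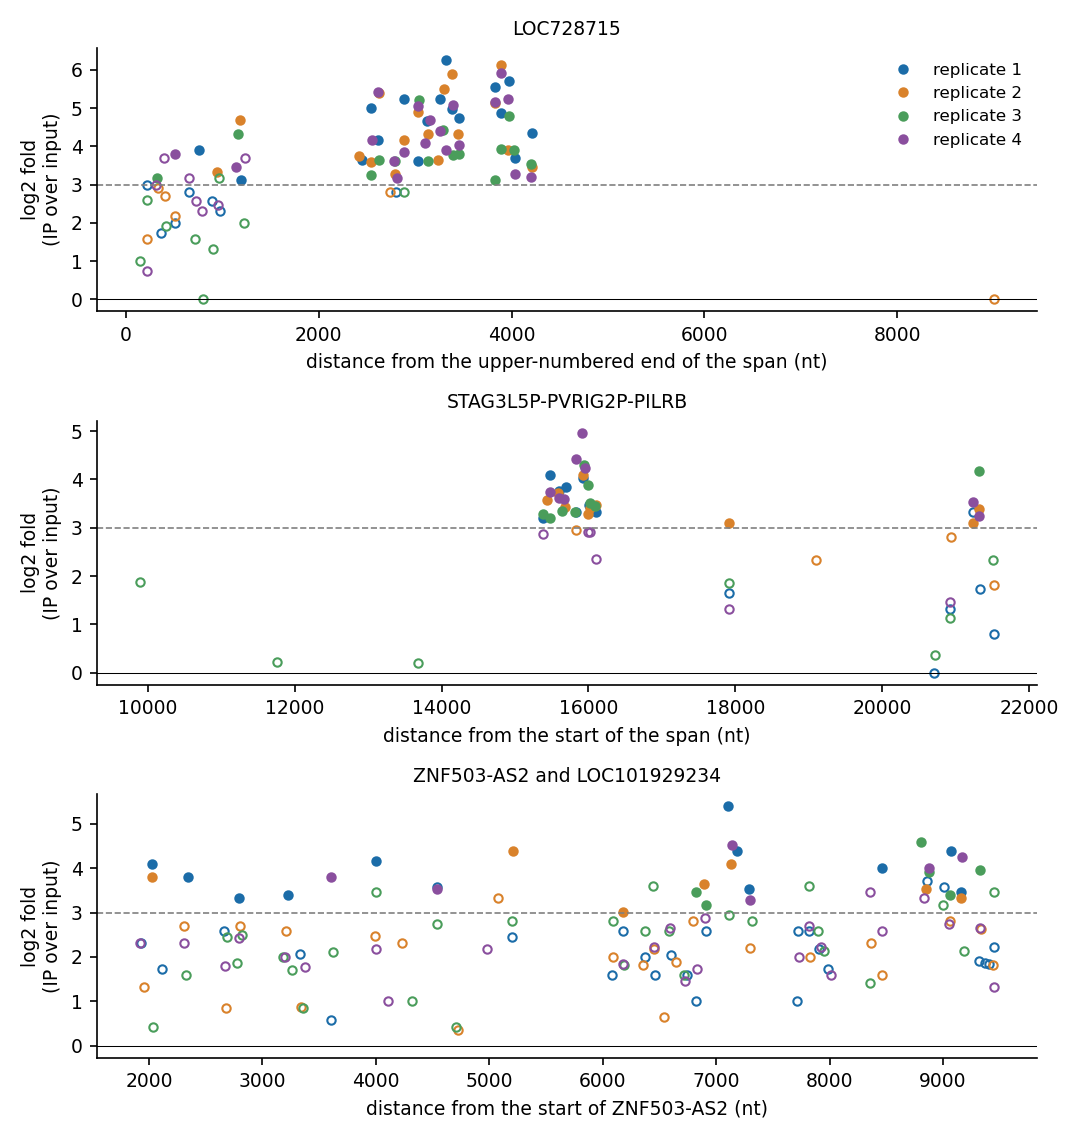
Log2 fold (immunoprecipitate, IP, over input) of every called lncRNA-only peak in the 3 loci against its distance along the gene, coloured by replicate, with filled points for enriched peaks and a dashed line at 3. In LOC728715 and the STAG3L5P readthrough the enriched peaks of the 4 replicates clustered at the same places, and in ZNF503-AS2 and LOC101929234 they were spread over 7357 nt among peaks under the threshold.

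Beyond the 3 loci, 2 regions were enriched in all 4 replicates. In GS1-24F4.2 (chr8:6835554-6842454) the region at 6835635 to 6835821 lay 204 nt from the span of XKR5. Its log2 folds were 4.46, 4.00, 3.70 and 4.09 (mean 4.06 ± 0.31, SD, n = 4). The other lay in MIRLET7A1HG, the host gene of the let-7a-1, let-7f-1 and let-7d cluster, which overlaps LINC02603 on the opposite strand. This region (chr9:94179333-94179454, plus strand) had log2 folds of 3.06, 4.25, 3.21 and 3.95 (mean 3.62 ± 0.57). It lay on the strand of MIRLET7A1HG, 413 nt from the let-7d hairpin, 2900 nt from let-7f-1 and 3297 nt from let-7a-1.

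Let-7 microRNAs repress messenger RNAs that promote growth and hold back differentiation. A region in MIRLET7IHG (chr12:62603126-62603275), which overlaps LINC01465, lay 411 nt from the let-7i hairpin. Its log2 folds were 2.58, 1.00, 2.59 and 3.09, enriched in replicate 4 only. The mature let-7 RNAs made from these hosts are shown because their hairpins lie beside the regions. They share the seed, bases 2 to 8, in capitals.

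hsa-let-7a-5p: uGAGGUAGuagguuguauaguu
hsa-let-7f-5p: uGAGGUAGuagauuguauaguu
hsa-let-7d-5p: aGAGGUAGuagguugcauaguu
hsa-let-7i-5p: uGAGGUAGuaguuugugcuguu

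The sequences are those of RefSeq, and none of the 4 holds GCAUG. Another microRNA host, MIR3677HG, had a region at chr16:2271251-2271372 with log2 folds of 3.09, 0.68, 1.59 and 3.17, enriched in 1 replicate. It lay 375 nt from the hairpin of miR-940 and 479 nt from that of miR-3677.

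Enrichment in 3 of 4 replicates was found in 9 regions, 3 of them outside the 3 loci. In MIAT, a nuclear lncRNA of neurons that is also known as Gomafu, and in MIATNB, which overlaps it, the region at chr22:26673538-26673713 had log2 folds of 3.81, 3.70, 4.46 and 3.0, and its −log10 p in replicate 4 was 1.41. In SNHG15, a small nucleolar RNA host, the region at chr7:44986232-44986308 had log2 folds of 3.13, 3.06, 3.39 and 2.91 (mean 3.12 ± 0.20, SD, n = 4), of which replicate 4 was just below the threshold. In LINC03009 the region at chr7:76560202-76560327 had 3.11, 4.70, 3.52 and 2.41. This region of LINC03009 lies 16967 nt from SPDYE16, a member of a duplicated gene family. How reads shared between copies were assigned is not given.

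**Figure D4:**
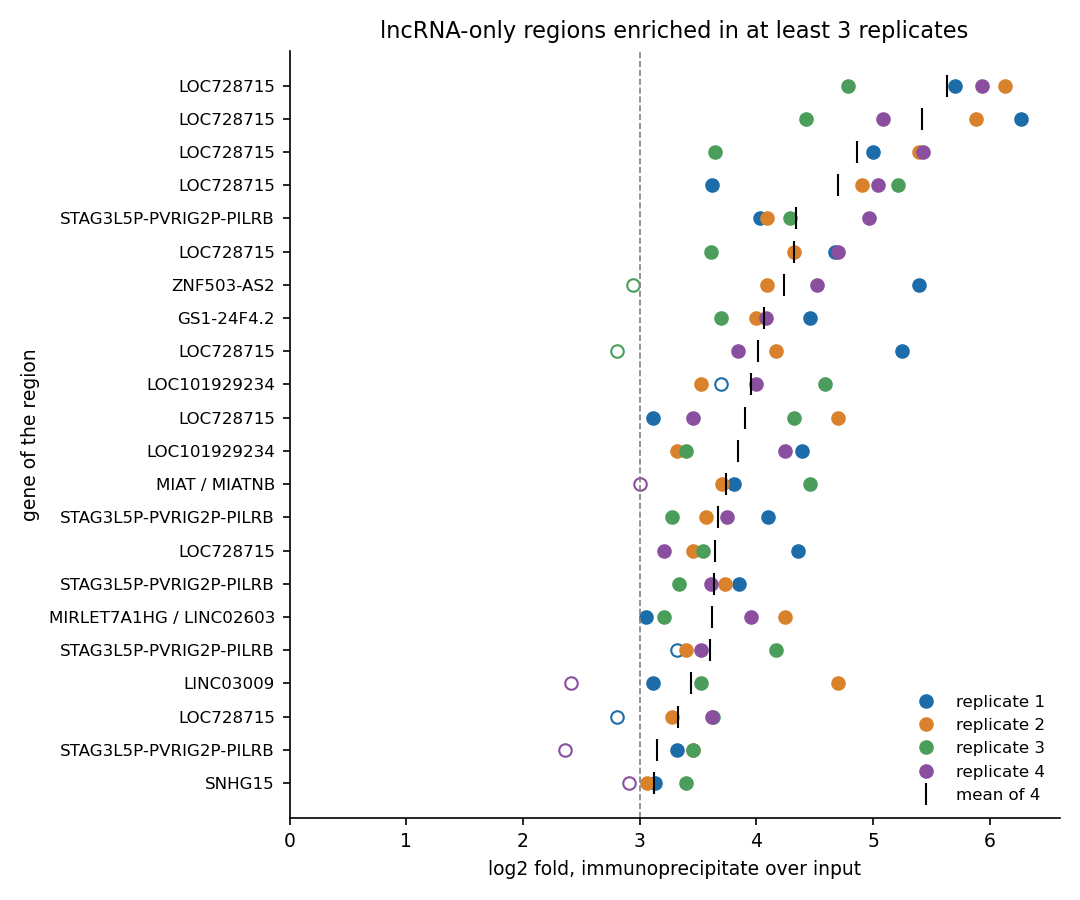
Log2 fold in each replicate (coloured points, filled where the replicate had an enriched peak) and mean of 4 (black bar) for the 22 lncRNA-only regions enriched in at least 3 replicates, 1 row per region. The dashed line marks the threshold of 3, and LOC728715 holds the highest rows.

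Enrichment in 2 replicates was found in 10 regions, among them 5 in genes with none in more, one of which is the SLC25A25-AS1 region above. They were named after their values were seen. In HM13-AS1, antisense to the signal peptide peptidase gene HM13, the region at chr20:31571193-31571305 had log2 folds of 4.32, 3.32, 2.17 and 4.17. In HCG17 and HCG18, which overlap within the major histocompatibility complex, the region at chr6:30317380-30317542 had 3.32, 4.17, 2.17 and 2.85. In ENTPD1-AS1, antisense to an ectonucleotidase gene, the region at chr10:95903297-95903374 had 2.58, 3.17, 3.81 and 3.91. All 12 values were above 2 on the log2 scale. In replicate 2, HM13-AS1 and ENTPD1-AS1 reached the fold but had a −log10 p of 2.20 and 2.88. SNAI3-AS1, near the start of the gene at chr16:88663393-88663633, was less even, with log2 folds of 4.39, 1.38, 1.0 and 4.58.

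In all, the enriched lncRNA-only peaks merged into 63 regions, of which 31 were enriched in 1 replicate, 10 in 2, 9 in 3 and 13 in 4 (20.6%). Over all peaks 16.4% of 3371 merged regions were enriched in all 4, and among protein-coding-only regions 473 of 2795 (16.9%) were. Without LOC728715 the count of 13 fell to 6, and without the 3 loci to 2. Of the 31 regions enriched in 1 replicate, 25 had a called peak with a log2 fold above 0 in all 4, and 18 of these had a log2 fold of at least 1 in all 4. Such folds can carry a weak p, as in LINC01128, where replicate 1 had 3.81 and replicate 4 had 1.0 with a −log10 p of 0. Examples are a second region of ENTPD1-AS1 (chr10:95903168-95903291) with 2.64, 3.86, 2.46 and 2.7, and one of ARRDC1-AS1 (chr9:137618431-137618602) with 2.32, 2.50, 1.77 and 3.17. Both were chosen after their values were seen.

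There were 5 regions just inside the 4-replicate rule, with a lowest log2 fold of 3.06 (MIRLET7A1HG), 3.11 and 3.21 (LOC728715), 3.28 (STAG3L5P-PVRIG2P-PILRB) and 3.32 (LOC101929234). Just outside were regions of LOC101929234, STAG3L5P-PVRIG2P-PILRB, MIAT, ZNF503-AS2 and SNHG15, whose lowest values were 3.52, 3.32, 3.0, 2.94 and 2.91. The first 2 of these missed on the −log10 p, which was 2.74 and 1.97 at its lowest.

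Sharing between replicates was measured as the percent of a replicate's enriched peaks with an enriched partner in 1 other replicate, averaged over the 3 others. A partner is a same-strand peak that shared at least 1 nt. A peak shared with only some of the others thus counts in part. For lncRNA-only peaks it was 65.2%, 65.9%, 65.9% and 63.8% (mean 65.2% ± 1.00, SD, n = 4). For protein-coding-only peaks the mean was 63.3% ± 2.10. The difference of 1.86 ± 3.05 percentage points was positive in 3 of 4 replicates and smaller than its own spread (exact two-sided sign-flip permutation, p = 0.375). Each value draws on the other lists, so the 4 values are not independent, and the SD and p are given as descriptions. The difference turned to −1.28 without replicate 2, to −11.7 without LOC728715 and to −23.0 without the 3 loci. Without the 3 loci the lncRNA-only mean was 40.4%. The loci were chosen for their enriched peaks and protein-coding peaks kept theirs, so these falls are no separate evidence on sharing.

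Enriched peaks were also compared with the other lncRNA-only peaks in properties that the selection did not use, given here as descriptions. Their median length was 76.1 nt (mean over lists) against 49.8 nt for the rest. Where the promoter table gives the gene's strand, for 19660 peaks, 18684 lay on it. All 92 enriched ones among them did. A protein-coding span lay within 10000 nt of 53.1% ± 1.39 of enriched peaks and of 35.5% ± 0.529 of the others (SD, n = 4). Within 1000 nt the shares were 8.36% ± 4.75 and 9.84% ± 0.309, which differ by less than their spread. The median distance was 8671 nt against 24396 nt. LOC728715, whose nearest coding genes KLRG1 and KLRB1 are at least 187461 nt away from its regions, is the main exception among the loci with many enriched peaks.

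By the form of their names, antisense genes (367 genes, 6979 called peaks) had 0.465% ± 0.199 of peaks enriched, LINC genes (235 genes, 4935 peaks) 0.285% ± 0.0547, and genes named as hosts of small RNAs (46 genes, 3765 peaks) 0.292% ± 0.0986 (SD, n = 4 for each). Divergent transcripts, which start next to a coding gene and run the other way, had 0 enriched of 2579 called peaks. Over all lncRNA-only peaks the share was 0.644%, and 0.167% without the 3 loci. At the latter share few enriched peaks would fall among 2579, so the 0 is not read as a trait of this class. Genes with LOC numbers reached 1.43% ± 0.0807, but 68 of their 80 enriched peaks were in LOC728715 and 11 in LOC101929234. The remaining names had 0.943% ± 0.128, with 35 of 49 enriched peaks in STAG3L5P-PVRIG2P-PILRB. Antisense genes had 19 of 32 in ZNF503-AS2.

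Of 45 well-known lncRNA genes in 4 lists, 26 had a lncRNA-only peak, 5 had an enriched one and none had a region enriched in all 4 replicates, against 6 of the 1505 genes with a peak. At a log2 fold of at least 1, 1 listed gene (SNHG15) had such a region. The counts below stand against 0.818% enriched among all called peaks and 0.644% among lncRNA-only peaks. Among 15 small nucleolar RNA hosts, which carry these guide RNAs in their introns, 9 had peaks and only SNHG15 had enriched ones (4 of the list's 229 peaks, 1.75%). Of 10 microRNA hosts, 4 had peaks and none of their 583 peaks was enriched. Of 11 chromatin or nuclear lncRNAs, 8 had peaks, and 4 of 582 (0.687%, near the background) were enriched, 3 in MIAT and 1 in HOTAIRM1, a transcript of the HOXA cluster. Of 9 cytoplasmic or decoy lncRNAs, 5 had peaks, and 2 of 1465 (0.137%) were enriched, 1 each in PVT1 and LINC01128.

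To use the size of the fold rather than a threshold, the peaks of the 4 lists were merged and regions present in all 4 lists were kept. In each replicate a region was given the fold of its most significant peak, and the highest fold where peaks tied. Regions that passed below 0 had a deposited −log10 p of 0 in every replicate, so this choice leans towards higher folds. The mean was tested against 0 with limma over all 49493 such regions (Benjamini-Hochberg adjustment, threshold 0.05). Only 6.0% of the 18356 lncRNA-only regions had a peak in every replicate, which left 1102 tested. Of these, 199 (18.1%) passed the threshold with a mean above 0, in 103 genes, and 17 (1.54%) with a mean below 0, in 15 genes. Over all regions tested 21.1% passed above 0 and 1.81% below, so the lncRNA shares were near the background. The median of the mean log2 folds was 0.50 both for lncRNA-only regions and for all regions. The median SD over replicates was 0.84 and 0.82. Over all called lncRNA-only peaks the median log2 fold was 0.0002 (mean over lists). How far the choice of peak raised the shares above 0 was not tested.

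Fewer regions passed when a replicate was left out. Over the same 1102 lncRNA-only regions, 65, 65, 81 and 59 passed above 0 without replicates 1, 2, 3 and 4, and 3 or 4 passed below. At an unadjusted p under 0.05 there were 309, 306, 286 and 290 of the 1102, against 375 with all 4 replicates. Where presence in the 3 remaining lists was enough, the tested set grew to 1464, 1417, 1433 and 1422 lncRNA-only regions. Then 0 passed above 0 without replicate 1, 2 or 4 and 43 without replicate 3, and at most 1 passed below. The smallest adjusted p over all regions of these larger sets was 0.0516, 0.0504, 0.0487 and 0.0517, close to the threshold. In them 342, 339, 331 and 323 lncRNA-only regions had an unadjusted p under 0.05. The 13 regions enriched in all 4 replicates passed with adjusted p from 0.00408 to 0.00496 (limma). In the larger sets with a replicate left out, their adjusted p ran from 0.0487 to 0.0544 (limma). These 13 were chosen for high folds in the same lists, so passing a test against 0 is no separate evidence for them. Tested against a log2 fold of 1 in place of 0, 45 lncRNA-only regions passed above and 0 below (17 below at a test against 0).

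**Figure D5:**
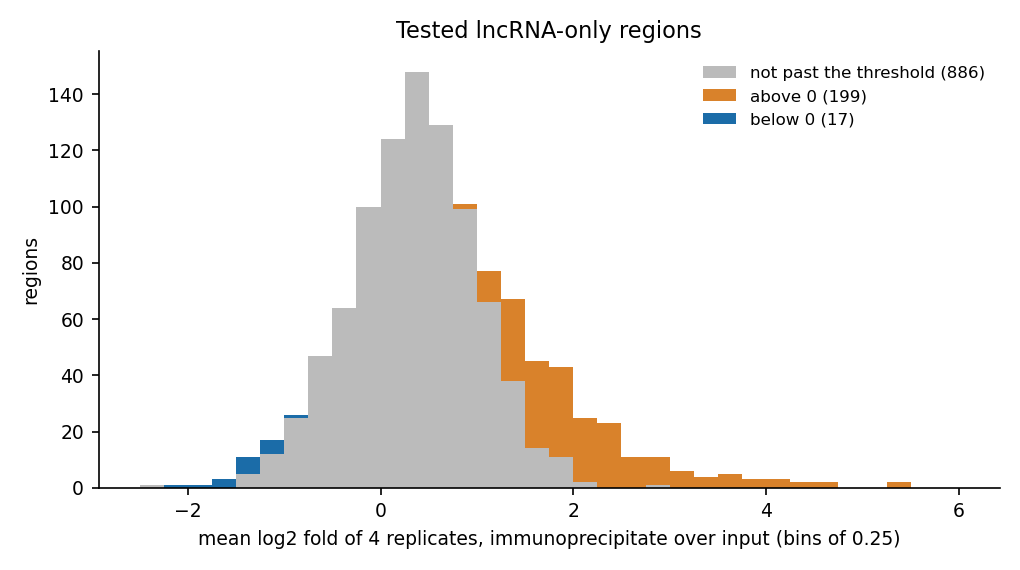
Mean log2 fold over 4 replicates of the 1102 tested lncRNA-only regions, in bins of 0.25, coloured by the limma result. The 199 regions that passed above 0 form the right tail and the 17 that passed below 0 lie towards the left edge, around a median of 0.50.

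All 35 tested regions in the 3 loci passed above 0, and 164 others did. The loci were chosen for their enriched peaks in the same lists, so the 35 are no separate evidence. Some genes had many regions with moderate folds and few or no enriched peaks. In GATA2-AS1, antisense to the blood and endothelial transcription factor gene GATA2, 13 of 17 tested regions passed above 0. The median of the mean log2 folds over the 17 was 2.20, yet only 2 of the gene's 102 called peaks were enriched. Its region at about chr3:128494100-128494240 (rounded coordinates) had log2 folds of 2.32, 2.81, 1.59 and 2.58 (mean 2.33 ± 0.53, SD, n = 4; limma adjusted p = 0.00878). MIR17HG, the host of the oncogenic miR-17-92 cluster, had 8 of 17 that passed above 0 and none of its 106 peaks enriched. Its region at chr13:91348164-91348412 had 1.58, 1.94, 2.09 and 1.81 (1.85 ± 0.21; limma adjusted p = 0.00838). The replicates of both regions lay close together and all above 0. GATA2-AS1 and MIR17HG were chosen here after their values were seen.

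Among the listed genes, 4 of 4 tested regions of SNHG15, 3 of 3 of MIAT, 4 of 8 of HOTAIRM1, 2 of 3 of LINC01128 and 11 of 60 of PVT1 passed above 0, where 21.1% of all tested regions did. The share in PVT1 was no higher than that. The region of MIAT at 26673507 to 26673842 had a mean of 3.74 ± 0.60 (limma adjusted p = 0.00465). DLEU2, ZFAS1, LINC-PINT, SNHG17 and SNHG12 had 1 region each that passed above 0. No tested region passed above 0 in NORAD, an abundant cytoplasmic decoy for Pumilio proteins, or in OIP5-AS1, whose 6 regions each had medians of −0.64 and −0.18. DANCR, a small nucleolar RNA host, and ZFAS1, another, each had 1 region that passed below 0. That of DANCR had a mean of −1.40 ± 0.46 (log2 folds of −0.78, −1.58, −1.37 and −1.87, limma adjusted p = 0.0253). That of ZFAS1 had −1.12 ± 0.43 (limma adjusted p = 0.0421).

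The lowest of the 17 regions that passed below 0 lay in LINC00641 (chr14:21206784-21206849). Its log2 folds were −2.32, −2.0, −2.58 and −1.59 (mean −2.12 ± 0.43, SD, n = 4, limma adjusted p = 0.00882). All 4 replicates were below input. Next came a region of the readthrough POLR2J2-UPK3BL1 with a mean of −1.95 ± 0.74, one of MIR924HG with −1.69 ± 0.84, one of POLR2J3-UPK3BL2 with −1.58 ± 0.82 and one of CHASERR, which lies next to CHD2 and limits its expression, with −1.54 ± 0.41. Their adjusted p lay between 0.0178 and 0.0408 (limma). The POLR2J readthroughs lie in duplicated sequence, and how reads shared by copies were assigned is not given.

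As a description, the log2 folds of the 1102 regions correlated between pairs of replicates with Spearman's rho from 0.367 to 0.431, and from 0.312 to 0.383 over the 1067 regions outside the 3 loci. Over all 49493 regions rho lay between 0.465 and 0.478. Regions are not independent, and both folds of a pair share no library. The folds moved in steps, since the 10 commonest log2 folds of a list covered 91.0% to 92.7% of its lncRNA-only peaks, against 86.8% to 88.4% of protein-coding-only peaks. Read counts were not used here, so the depth behind a peak is unknown.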

How the data were processed

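Per the submitters' processing notes, UMI-tools 1.1.1, cutadapt 3.2 and STAR 2.7.7a were used with hg38 and GRCh38.p13. The peak caller, the p-value test and its adjustment, the scaling, and the handling of multi-mapping reads are not given in the sources used here. The authors deposited 1 list per immunoprecipitate without a header. Judged by their ranges, one deposited column was taken as a −log10 p and the other deposited column as a log2 fold over input. Separate input values and read counts were not used here, so depth is unknown.

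Peaks were placed by midpoint in the spans of the RefSeq table (GRCh38.p14). Distances of regions to protein-coding spans were measured from region midpoints. Coordinates are 1-based. Enriched peaks were merged by at least 1 nt of overlap on a strand. Where peaks tied on −log10 p, the highest fold was taken. Limma 3.58.1 (R 4.3.3; intercept only, eBayes, two-sided), Python 3.11.15, numpy 2.4.6, pandas 2.3.3 and scipy 1.17.1 were used.

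Genes were named if they held regions enriched in all 4 or most regions in at least 3 replicates, were among the 10 with most called peaks, held 1 of the 5 lowest limma regions, lay next to the threshold, or were listed with enriched peaks in at least 2 replicates. Members and lists were chosen with earlier results of these data known. Other thresholds, placement, overlap, gene sets and left-out replicates were tried as alternatives.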

Additional observations from a re-analysis of the deposited data

Results flagged for a closer look

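The STAG3L5P-PVRIG2P-PILRB region at 100352130 to 100352191 on chromosome 7 was the only one of 48 sets of 4 replicate values in which 1 replicate stood apart by Dixon's ratio. Its log2 fold was 2.36 in replicate 4 and lay between 3.32 and 3.46 in replicates 1 to 3. About 1 set in 20 would stand apart by chance.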

How the results depend on the processing

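No paired analysis was possible because a replicate block needs unpaired values, and every fold here is already taken within a pair. The lower share of enriched peaks in lncRNA-only than in protein-coding-only spans (−0.163 in the main setting) kept its direction under each alternative run. With all genes kept, it ran from −0.0421 at a −log10 p of at least 5 to −0.268 at a log2 fold of at least 1. It was −0.640 without the 3 loci. Runs without LOC names, LOC728715 or the 3 loci dropped genes from the lncRNA side only. Their lower shares, partner percents and differences, also those below, are therefore no separate evidence. The alternatives without LOC728715, without the 3 loci and without a replicate over the regions of all 4 lists were chosen after seeing the data. In the order −log10 p from 5 upwards, log2 fold from 4 upwards at any p, without genes named LOC, without LOC728715 and without the 3 loci, the enriched lncRNA-only peaks per replicate numbered 28, 17.5, 25, 27.75 and 11.5 (44.75 in the main setting). Their share was 0.402%, 0.254%, 0.435%, 0.401% and 0.167% (0.644%), and 0.787% at a log2 fold of at least 1. The percent with an enriched partner was 74.2%, 49.1%, 52.1%, 51.6% and 40.4% (65.2%), 71.3% at a log2 fold of at least 1, 57.8% with mutual overlap of at least 50%, 96.5% with any called partner, and 62.3% to 67.7% with a replicate left out. Its difference from protein-coding-only peaks (1.86) turned to −0.752, −7.11, −11.3, −11.7 and −23.0 percentage points in the same order, to −0.796 with any called partner and, with a replicate left out, ranged from −1.28 (without replicate 2) to 4.53. The difference from peaks outside genes (0.395) turned to −0.0816 without the 3 loci. Regions enriched in all 4 replicates (13) numbered 3 at a minimum log2 fold of 4, 20 at 1, 55 with any called peak, 5 without LOC names, 6 without LOC728715 and 2 without the 3 loci, and 13 to 18 with a replicate left out. Listed genes with such a region (0) numbered 1 at a minimum of 1 and 0 to 2 with a replicate left out. In limma, regions that passed above 0 (199) numbered 45 against a log2 fold of 1 and 0 to 43 with a replicate left out. Over the regions of all 4 lists they numbered 65, 65, 81 and 59. Those that passed below 0 (17) numbered 0 against a log2 fold of 1, and 0 to 1 with a replicate left out. Over the regions of all 4 lists they numbered 3 to 4. The median of the mean log2 folds (0.50) was 0.44 with the mean over a region's peaks and 0.333 to 0.334 with a replicate left out, when 1417 to 1464 regions entered in place of 1102, and 0.53 over the same 1102. The settings without genes hold fewer genes, and otherwise the cause was not tested. No depth was available to set a limit on any single fold.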
